A study of Mus musculus with 6 samples.

Results

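Collagen chain genes were described in tumour cells sorted from mouse lungs. A gene was taken as a member where its platform symbol read Col, a number, a and a number, and its probe set carried no other symbol. Where a gene had several probe sets, the brightest on average across all 6 arrays stood for it. This gave 42 collagen genes of 18193 genes on the array. Of these 42, 31 had a mean at or above 4.97 log2 units, the 40th percentile of all non-control probe sets, and were tested among 13090 genes, while 11 lay below that level.

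Collagens are secreted or membrane-bound proteins in which a trio of alpha chains winds into a triple helix of repeating glycine triplets. Fibrillar chains (types I, II, III, V and XI) form the fibrils of connective tissue, and in lung are made largely by fibroblasts. Col24a1 and Col27a1 were counted with this class. Type IV chains form the sheet-like network of basement membranes, type VI chains form beaded microfilaments, and types VII and XVII fasten epithelial cells to the matrix beneath them.

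The study used MVT1, a mouse mammary tumour line carrying green fluorescent protein, which was injected intravenously into syngeneic FVB/N mice. GFP-positive tumour cells were sorted from lungs, and total RNA was hybridised to Affymetrix mouse whole-genome arrays. The groups, of 2 arrays each, were GW2580 at 2 weeks, vehicle at 2 weeks and vehicle at 1 week after injection. GW2580, which blocks the kinase of the CSF1 receptor and thereby signalling to macrophages, was given daily by gavage at 160 mg per kg from 1 week after injection. All groups share a single tumour line and intravenous seeding, which bypasses a primary tumour. The design assigns 2 mice to each vehicle group, whereas the number of mice per GW2580 array was not stated in the labels. The p-values measure the spread between arrays, which may be technical.

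All values are RMA log2 levels, and the number of arrays limits their precision. Levels of different genes come from different probes and were not compared with each other. Array medians lay between 5.57 and 5.63. For beta-actin, the 3' minus 5' difference was 1.20 on vehicle replicate 2 at 2 weeks and 0.38 to 0.50 on the other arrays. The mean of 3 BioB hybridisation controls was 10.21 on vehicle replicate 1 at 1 week and 8.89 to 9.14 elsewhere. Keratin genes Krt8 and Krt18 read 12.93 to 13.82 on all arrays, while the epithelial cadherin gene Cdh1 (3.49 to 3.99) and Esrp1 were below the level filter.

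**Figure D1:**
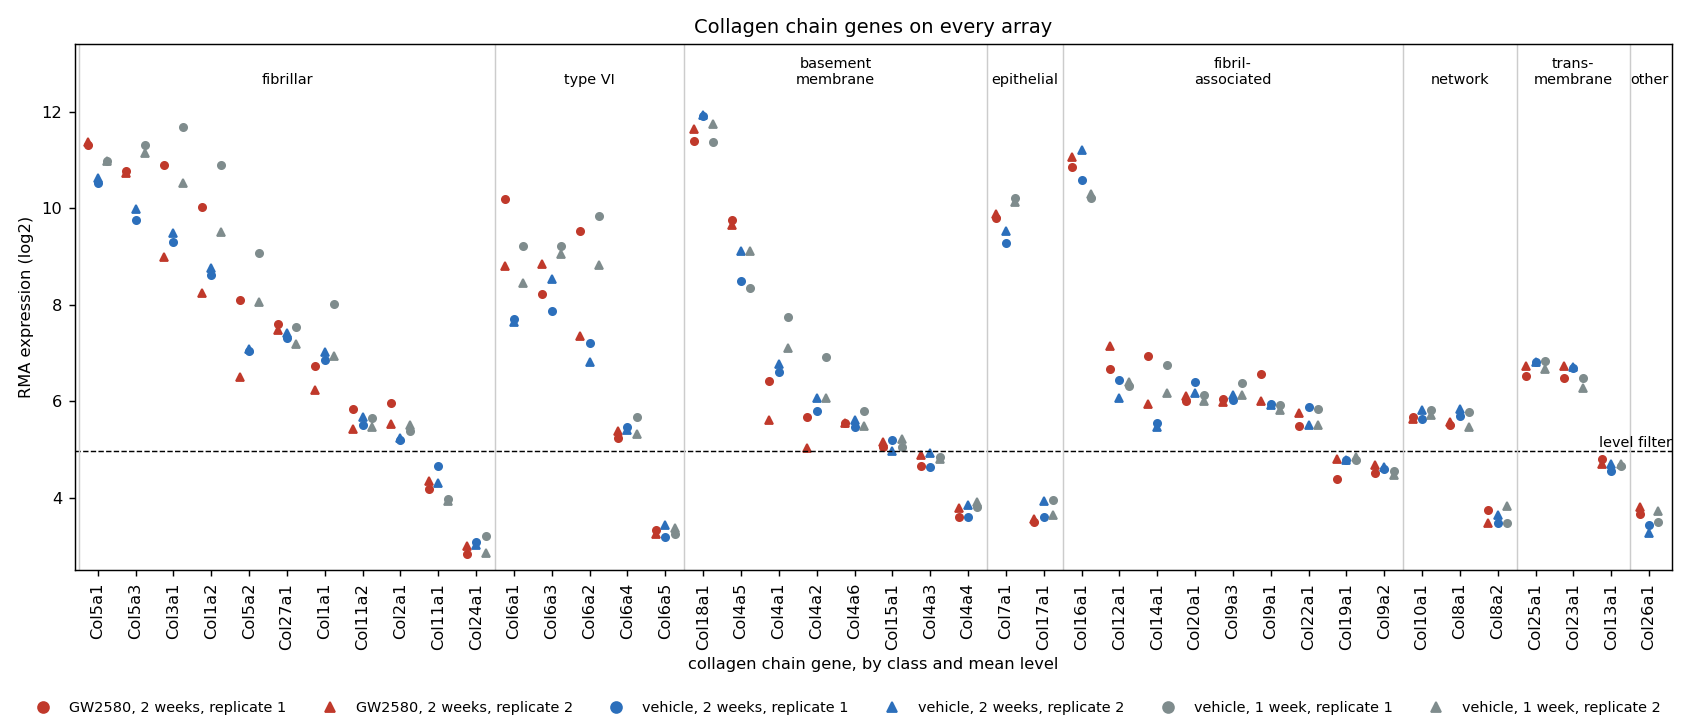
Levels of the 42 collagen genes (horizontal axis, by class) on each of the 6 arrays (vertical axis, RMA log2 units). Colours are groups, circles are replicate 1, triangles are replicate 2, and the dashed line is the level of 4.97 below which genes were not tested. Col5a1, Col5a3 and Col7a1 have close replicates, while Col1a2, Col3a1, Col5a2, Col6a1 and Col6a2 spread widely within the GW2580 and the 1-week groups.

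Tests were made with limma over all 6 arrays, with Benjamini-Hochberg adjustment over the 13090 genes. A gene was called, and is said to have risen or fallen, at an adjusted p under 0.05. In vehicle mice, 2 of the 31 tested collagens, Col5a3 and Col7a1, fell at 2 weeks relative to 1 week and 0 rose. That is 6.45% of the tested members, where 6.45% of all tested genes were called (3.74% higher, 2.71% lower), so the share of called collagens was that of all genes. At an unadjusted p under 0.05, 12 collagens differed over time, 1 higher and 11 lower (35.5% lower), where 23.6% of all genes did, 14.1% higher and 9.45% lower. With GW2580 against vehicle at 2 weeks, 0 of 31 were called, where 0.367% of all genes were (0.0688% higher, 0.298% lower). At an unadjusted p under 0.05 there were 11 collagens in that comparison, 9 higher (29% of the tested members) and 2 lower, where 18% of all genes passed, 5.36% higher and 12.6% lower. With GW2580 at 2 weeks against vehicle at 1 week, 0 of 31 were called (0.512% of all genes, 0.359% higher and 0.153% lower). There, 4 collagens were higher and 7 lower at an unadjusted p under 0.05, where 17% of all genes passed, 6.64% higher and 10.4% lower.

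The 2 arrays of one group lay wholly apart from those of the other for many genes. Over time this held for 18 of 31 collagens, 4 higher and 14 lower, and for 56.7% of all genes, 31.5% higher and 25.2% lower. With GW2580 against vehicle it held for 11 collagens higher and 8 lower, and for 49.8% of all genes, 18.3% higher and 31.5% lower. With GW2580 against 1 week it held for 6 higher and 8 lower, and for 46.7% of all genes, 18.8% higher and 27.9% lower. By class, 9 fibrillar chains had a median difference of -0.54 over time and 0.45 with GW2580, 4 type VI chains -1.04 and 0.88, and 7 fibril-associated chains 0.02 and 0.06, beside 0.02 and -0.05 for all genes. Without vehicle replicate 1 at 1 week, 0 of the 13090 genes were called over time (1630 at an unadjusted p under 0.05, limma), so each call over time given here was lost without that array. Both main comparisons share the 2-week vehicle arrays, so a level that was low there appears as negative in one and positive in the other.

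The type V chains Col5a3 and Col5a1 had the smallest p-values of the collagens in the inhibitor comparison. Type V collagen nucleates fibrils of type I and III collagen and limits their diameter, and the alpha3 chain encoded by Col5a3 is found in fewer tissues than the alpha1 chain. Col5a3 read 10.76 and 10.73 on the GW2580 arrays, 9.76 and 9.98 on the 2-week vehicle arrays, and 11.31 and 11.14 on the 1-week vehicle arrays. The 3 groups did not overlap, with the 2-week vehicle arrays lowest and the 1-week arrays highest. Its means were 9.87 ± 0.15 in vehicle mice at 2 weeks and 11.23 ± 0.13 in vehicle mice at 1 week (SD, n = 2 arrays each). Col5a3 thus fell 2.56-fold at 2 weeks (difference -1.36, SE 0.14, limma adjusted p 0.0102). The call was lost without vehicle replicate 1 at 1 week (difference -1.27, adjusted p 0.1) and was kept without each of the other 3 arrays compared (-1.25 to -1.46). A second Col5a3 probe set, at a mean of 5.01 near the filter, differed by -0.09.

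With GW2580, Col5a3 averaged 10.75 ± 0.02, against 9.87 ± 0.15 in 2-week vehicle mice (SD, n = 2 arrays each). The difference of 0.88 (SE 0.14) had a limma adjusted p of 0.0504 and was not called. Col5a1, for the chain found in nearly all type V trimers, read 11.31 and 11.37 on the GW2580 arrays, 10.52 and 10.63 on the 2-week vehicle arrays, and 10.98 and 10.99 on the 1-week vehicle arrays. Here the GW2580 arrays were the highest, and again no groups overlapped. Col5a1 differed by 0.76 with GW2580 (SE 0.12, limma adjusted p 0.053) and by -0.41 between 2 and 1 weeks (adjusted p 0.0872). Its other probe sets differed by 0.46 and 0.24 with GW2580. Both genes lie so near the threshold that other settings moved them across it: both passed without the level filter (0.0447 for Col5a3 and 0.0464 for Col5a1), and neither passed when any array of the comparison was left out, with differences of 0.77 to 0.99 for Col5a3 and 0.71 to 0.82 for Col5a1.

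Col7a1, which encodes the chain of the anchoring fibrils that tie epithelial basement membranes to the stroma, followed the same order of groups as Col5a3. It read 9.80 and 9.88 on the GW2580 arrays, 9.28 and 9.52 on the 2-week vehicle arrays, and 10.21 and 10.12 on the 1-week vehicle arrays. The 2-week vehicle arrays were lowest, the 1-week arrays highest, and no groups overlapped. Col7a1 averaged 9.40 ± 0.17 in vehicle mice at 2 weeks and 10.16 ± 0.07 at 1 week (SD, n = 2 arrays each), and fell 1.70-fold (difference -0.76, SE 0.13, limma adjusted p 0.0251). Left-out arrays gave differences of -0.64 to -0.88 and ended the call in each of the 4 cases (adjusted p 0.0582 to 0.21). With GW2580 it differed by 0.44 from vehicle (SE 0.13, limma adjusted p 0.157). The second epithelial chain, Col17a1, a transmembrane component of hemidesmosomes, was at 3.51 to 3.96 on all 6 arrays, below the filter, and was not tested.

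Promoter sequence is shown for Col5a3 and Col7a1, the genes called over time, and for Col1a2 and Col3a1, which ranked the 6 arrays in the same order, as described further on. RefSeq promoters of GRCm38.p6 were found for 33 of the 42 genes. Printed are the bases before the start site of that table, 5′ to 3′ on the gene's strand. For Col5a3 the 50 bases next to that start site lie inside its annotated gene and are left out, so the printed run ends 50 bases before it. The windows are chr9:20815118-20815317 (minus strand), chr9:108953336-108953585 (plus), chr6:4505368-4505617 (plus) and chr1:45311288-45311537 (plus). Capitals mark the CCAAT box (CCAAT), the TATA box (TATAAA) and the GC box (GGGCGG), searched on both strands, with no hits overlapping in these windows.
Col5a3 promoter: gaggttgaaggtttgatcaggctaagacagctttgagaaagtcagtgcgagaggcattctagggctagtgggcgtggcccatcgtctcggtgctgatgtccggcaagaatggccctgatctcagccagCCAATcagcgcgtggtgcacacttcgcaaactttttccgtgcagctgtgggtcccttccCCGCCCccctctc
Col7a1 promoter: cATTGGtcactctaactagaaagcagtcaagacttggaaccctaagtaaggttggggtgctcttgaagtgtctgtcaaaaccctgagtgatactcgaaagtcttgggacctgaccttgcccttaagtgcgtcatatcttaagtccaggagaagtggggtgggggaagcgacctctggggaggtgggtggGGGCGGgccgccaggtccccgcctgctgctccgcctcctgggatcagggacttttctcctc
Col1a2 promoter: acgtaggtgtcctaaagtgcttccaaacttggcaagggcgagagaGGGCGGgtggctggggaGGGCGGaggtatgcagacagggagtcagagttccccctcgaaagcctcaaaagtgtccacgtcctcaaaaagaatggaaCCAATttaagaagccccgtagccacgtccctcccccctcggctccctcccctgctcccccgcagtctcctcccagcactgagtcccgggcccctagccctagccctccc
Col3a1 promoter: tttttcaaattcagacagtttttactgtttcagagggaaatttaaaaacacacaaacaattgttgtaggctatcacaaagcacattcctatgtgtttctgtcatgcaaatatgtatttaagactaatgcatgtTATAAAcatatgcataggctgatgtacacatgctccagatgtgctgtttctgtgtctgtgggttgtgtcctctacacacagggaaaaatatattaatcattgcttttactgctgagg
Counted to the start site of the table, left-out bases included, a CCAAT box began 122 bases before it for Col5a3 and 109 for Col1a2, and its complement 249 for Col7a1. The Col3a1 window held a TATAAA at 117 bases and neither of the other motifs. Over 250 bases, CCAAT occurred in 33.8% of 32851 promoters and in 33.3% of the 33 collagen promoters, TATAAA in 12.4% and 15.2%, and GGGCGG in 32.7% and 57.6%. Collagens entered with a single promoter per gene, whereas the 32851 were limited neither in that way nor to genes on the array. The shares thus come from unlike sets, and their differences were not tested. These matches are descriptions of the letters, not of bound sites.

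**Figure D2:**
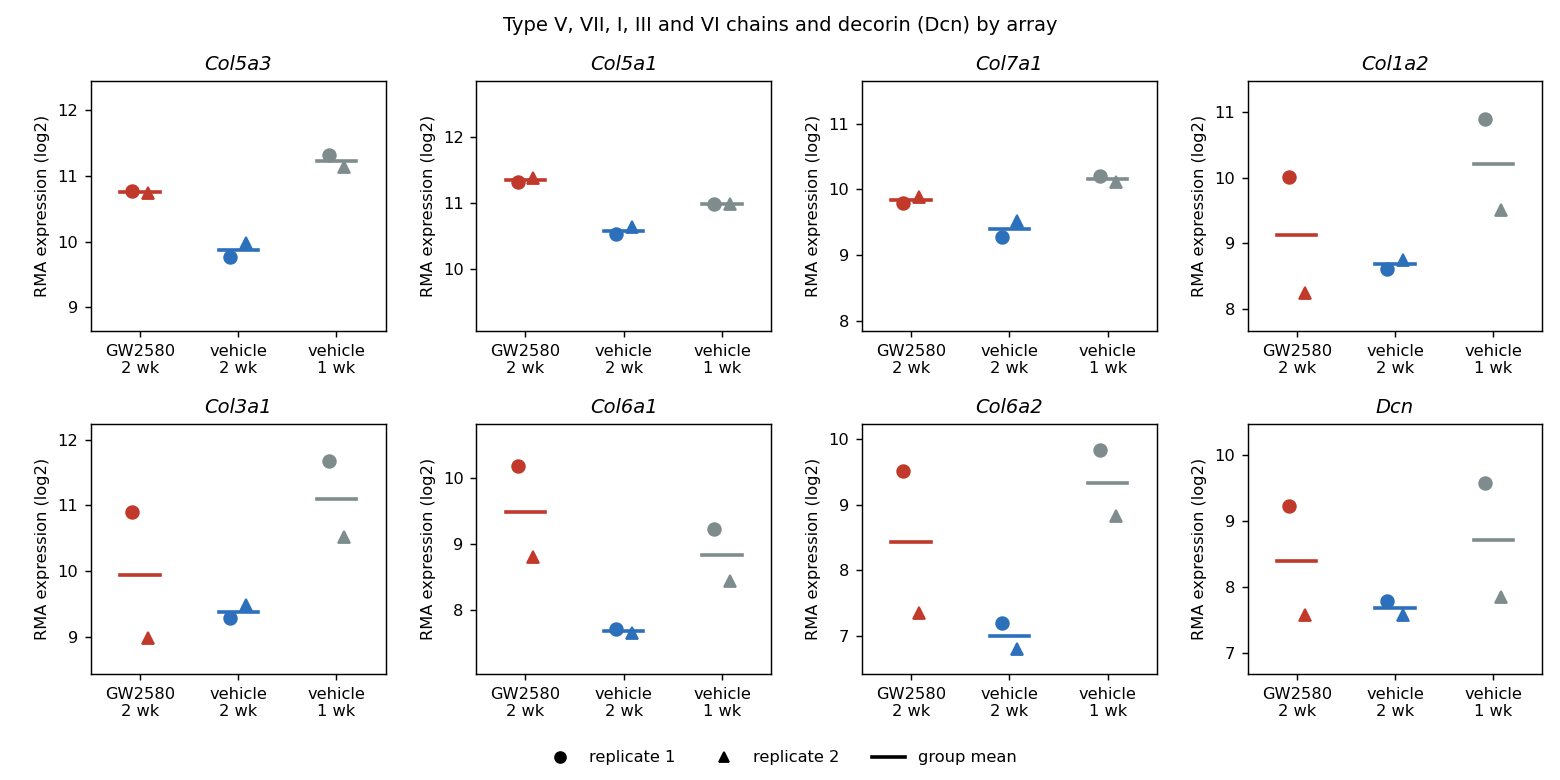
Levels of 7 collagen genes and of the fibroblast proteoglycan gene Dcn on every array (vertical axes, RMA log2 units, each spanning the same number of units). Circles are replicate 1, triangles are replicate 2, and bars are group means. Col5a3, Col5a1 and Col7a1 separate the 3 groups with close replicates, whereas Col1a2, Col3a1, Col6a2 and Dcn are high on replicate 1 of the GW2580 and 1-week groups.

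The chains of type I and III collagen, the main fibrils of lung stroma, differed from array to array within a group. Col3a1 read 10.90 and 8.98 on the GW2580 arrays, 9.29 and 9.49 on the 2-week vehicle arrays, and 11.68 and 10.51 on the 1-week vehicle arrays. The 2-week vehicle arrays lay below both 1-week arrays, while the GW2580 arrays lay on either side of them. Col3a1 differed by -1.71 between vehicle at 2 weeks and at 1 week (SE 0.58, limma adjusted p 0.12) and by 0.55 between GW2580 and vehicle (SE 0.58, adjusted p 0.652). Without GW2580 replicate 1 the GW2580 difference was -0.40, and without GW2580 replicate 2 it was 1.51. Between 2 and 1 weeks it was -1.13 without the first 1-week array and -2.29 without the second.

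Col1a2, for the alpha2 chain of type I collagen, read 10.02 and 8.24 on the GW2580 arrays, 8.62 and 8.75 on the 2-week vehicle arrays, and 10.89 and 9.51 on the 1-week vehicle arrays. It showed the same order of arrays as Col3a1. Its differences were -1.51 over time (SE 0.58, limma adjusted p 0.159) and 0.45 with GW2580 (SE 0.58, adjusted p 0.724), and the GW2580 difference was -0.44 without GW2580 replicate 1. A second Col1a2 probe set, at a mean of 7.54, differed by -1.08 over time and by -0.41 with GW2580, so the direction with GW2580 depended on the probe set. Col1a1, for the alpha1 chain, read 6.74 and 6.23 with GW2580, 6.85 and 7.02 with vehicle at 2 weeks, and 8.01 and 6.94 with vehicle at 1 week. The first 1-week array was the highest, and on this probe set both GW2580 arrays lay below all vehicle arrays. The differences of Col1a1 were -0.54 over time and -0.45 with GW2580, or -1.002 and 0.12 on its other probe set. Col5a2, for the alpha2 chain of type V collagen and the chromosomal neighbour of Col3a1, read 8.10 and 6.50 with GW2580, 7.03 and 7.08 with vehicle at 2 weeks, and 9.08 and 8.05 with vehicle at 1 week. It followed Col3a1 and not the other type V chains, with a difference of -1.51 over time (limma adjusted p 0.11).

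Type VI chains, which assemble as a heterotrimer of Col6a1, Col6a2 and Col6a3 products around cells, included the largest single difference of the collagens over time (Col6a2) and with GW2580 (Col6a1). Col6a2 read 9.52 and 7.35 on the GW2580 arrays, 7.20 and 6.81 on the 2-week vehicle arrays, and 9.83 and 8.83 on the 1-week vehicle arrays. Both 2-week vehicle arrays were the lowest of the 6. Col6a2 differed by -2.33 over time (SE 0.62, limma adjusted p 0.064) and by 1.43 with GW2580 (SE 0.62, adjusted p 0.275). A second Col6a2 probe set, at a mean of 7.86, differed less, by -1.49 over time and by 0.885 with GW2580. On the first probe set, the GW2580 difference was 0.35 without GW2580 replicate 1 and 2.51 without GW2580 replicate 2. Each of these values rests on 1 GW2580 array.

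Col6a1 read 10.18 and 8.80 on the GW2580 arrays, 7.70 and 7.65 on the 2-week vehicle arrays, and 9.22 and 8.44 on the 1-week vehicle arrays. The 2-week vehicle arrays again lay below all others. The difference of 1.81 with GW2580 was not called (SE 0.42, limma adjusted p 0.0967). It was 1.12 without GW2580 replicate 1, and 2.51 without replicate 2, each value resting on 1 GW2580 array. Over time Col6a1 differed by -1.15 (SE 0.42, limma adjusted p 0.141).

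Col6a3 read 8.22 and 8.83 on the GW2580 arrays, 7.86 and 8.54 on the 2-week vehicle arrays, and 9.22 and 9.05 on the 1-week vehicle arrays. Unlike its partners it was lower on replicate 1 than on replicate 2 of the GW2580 group, and the GW2580 and 2-week vehicle arrays overlapped. It differed by -0.93 over time (SE 0.26, limma adjusted p 0.0744) and by 0.32 with GW2580. Col14a1, a fibril-associated chain of connective tissue, followed Col6a1, with 6.93 and 5.94 on the GW2580 arrays, 5.54 and 5.46 on the 2-week vehicle arrays, and 6.75 and 6.18 on the 1-week vehicle arrays. Its differences were 0.94 with GW2580 and -0.96 over time (limma adjusted p 0.182 and 0.108), and its other probe sets, both below the filter, differed by 0.04 and 0.18 with GW2580.

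The fit of all arrays took its spread from all 3 groups, the GW2580 arrays included. A fit of 4 arrays leaves fewer degrees of freedom, and the cause of its different counts was not tested. With only the 4 vehicle arrays fitted, 7 collagens were called lower at 2 weeks instead of 2, while 1059 of all 13090 genes (8.09%) were called instead of 844. These were Col5a3, Col7a1, Col3a1, Col5a2, Col6a1, Col6a2 and Col14a1, with adjusted p-values of 0.0106 to 0.0403. The fit of 4 arrays was not repeated with an array left out. With the GW2580 arrays fitted too and replicate 1 of the 1-week group left out, 1 array stood for 1 week. There Col5a3 differed by -1.27, Col7a1 by -0.715, Col3a1 by -1.13, Col6a1 by -0.765 and Col6a2 by -1.83. These differences were smaller in size than with both 1-week arrays.

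**Figure D3:**
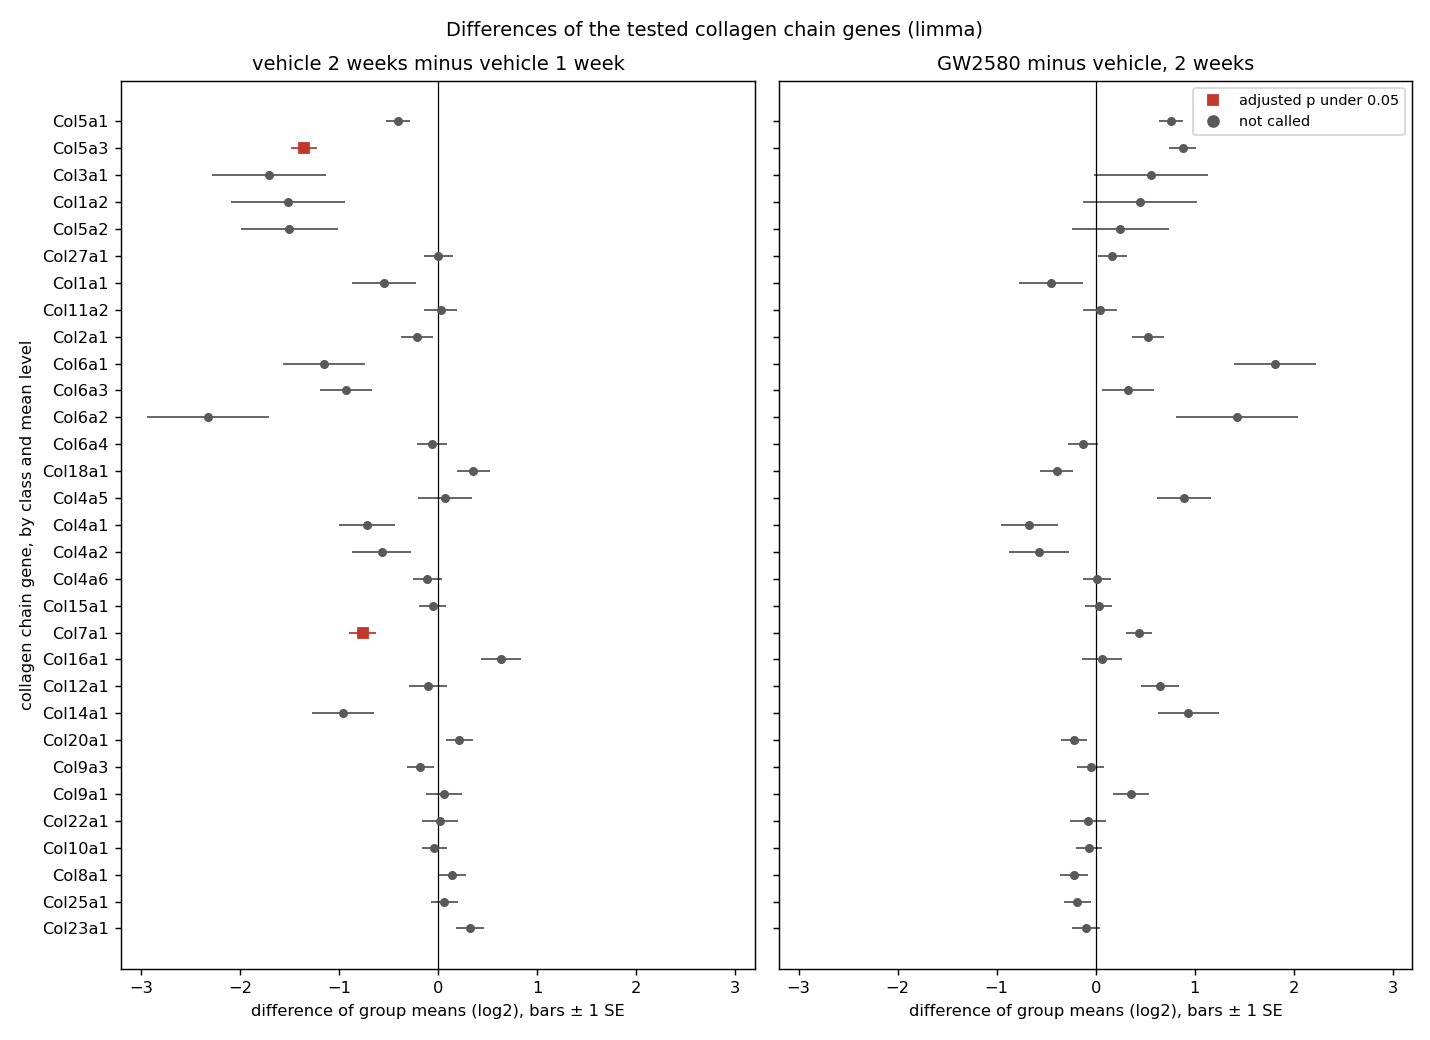
Differences of group means for the 31 tested collagen genes (vertical axis, by class), for vehicle at 2 weeks minus vehicle at 1 week on the left and GW2580 minus vehicle at 2 weeks on the right (horizontal axes, log2 units). Bars are ± 1 SE from limma, and red squares mark called genes. Only Col5a3 and Col7a1 on the left are called, and the longest bars belong to Col6a2, Col3a1 and Col1a2.

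The gap between the 2 arrays of a group separated the collagens. In the GW2580 group 5 collagens were higher by over 1 log2 unit on replicate 1 (Col6a2 by 2.16, Col3a1 by 1.91, Col1a2 by 1.77, Col5a2 by 1.60 and Col6a1 by 1.39), where 0.879% of all tested genes had a gap that wide in either direction. In the 1-week group the gap was over 1 for Col1a2 (1.38), Col3a1 (1.17), Col1a1 (1.08), Col5a2 (1.03) and Col6a2 (1.00), against 0.55% of all tested genes. In the 2-week vehicle group 0 collagens had such a gap. For Col5a3, Col5a1 and Col7a1 the gap did not exceed 0.24 in any group. For Col3a1, Col1a2 and Col6a2 the gap between the GW2580 arrays was wider than the difference between GW2580 and vehicle means.

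Some markers of other cells differed between the same arrays, and their part in the collagen values was not tested. Of 16 fibroblast and smooth muscle markers other than collagens, 10 were above the level filter, and 6, among them Fap and Thy1, were below it. The mean of the 10 was 6.41 and 6.07 on the GW2580 arrays, 6.17 and 6.19 on the 2-week vehicle arrays, and 7.09 and 6.36 on the 1-week vehicle arrays. Dcn, for the collagen-binding proteoglycan decorin, read 9.22 and 7.57 with GW2580, 7.79 and 7.57 with vehicle at 2 weeks, and 9.57 and 7.84 with vehicle at 1 week. The fibroblast receptor gene Pdgfra ran otherwise, at 5.78 and 6.15 with GW2580, 6.49 and 6.67 with vehicle at 2 weeks, and 6.59 and 6.30 with vehicle at 1 week. Over time 0 of the 10 markers were called, where 6.45% of all tested genes were. Their median was -0.47, against 0.02 over all genes and -0.11 over the 31 collagens. At an unadjusted p under 0.05 (limma), 4 of the 10 were lower over time and 0 higher. Of all genes, 9.45% were lower and 14.1% higher. With GW2580 0 were called (0.367% of all tested genes), and 1 was lower and 0 higher at an unadjusted p under 0.05. The median with GW2580 was 0.06, against -0.05 over all genes and 0.06 over the collagens. In such sorted samples, fewer cells of a type and less RNA per cell cannot be told apart.

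Lung epithelial markers also differed between the arrays of a group. The mean of 14 was 7.26 and 6.41 on the GW2580 arrays, 6.87 and 6.94 on the 2-week vehicle arrays, and 7.52 and 7.08 on the 1-week vehicle arrays. The surfactant gene Sftpc read 7.90 and 7.19 with GW2580, 9.97 and 9.25 with vehicle at 2 weeks, and 8.33 and 9.29 with vehicle at 1 week. It was lowest with GW2580. Of the 14 markers, Sftpd rose over time (6.45% of all tested genes were called). Sftpd and Sftpa1 fell with GW2580 (0.367% of all tested genes were called). The club cell gene Scgb1a1, chosen after its values were seen, ran otherwise, at 10.91 and 7.59 with GW2580, 6.49 and 8.08 with vehicle at 2 weeks, and 11.31 and 9.59 with vehicle at 1 week. Like Col3a1 and Col6a2, it was high on replicate 1 of the GW2580 and 1-week groups, as were Scgb3a2 and Cyp2f2.

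Of endothelial markers, 7 were above the filter, with a mean between 6.44 and 6.71, and Pecam1 was below it on all arrays (4.26 to 4.61). Members of that list ran in opposite directions: Plvap differed by -1.20 over time and 1.54 with GW2580, and Tie1 by 0.86 and -0.52, with 0 called. The mean of 13 leukocyte and macrophage markers lay between 6.53 and 6.91. Ptprc, for the leukocyte antigen CD45, fell by 0.61 over time (limma adjusted p 0.0387), the direction of Col5a3 and Col7a1, while Cd68 differed by 0.98 and was not called. Over time 1 of the 13 was called, where 6.45% of all tested genes were. With GW2580 0 of the 13 were called (0.367% of all tested genes), and Ptprc differed by -0.12. The mean of 7 mammary epithelial markers lay between 8.03 and 8.68, and Epcam between 6.85 and 7.31.

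**Figure D4:**
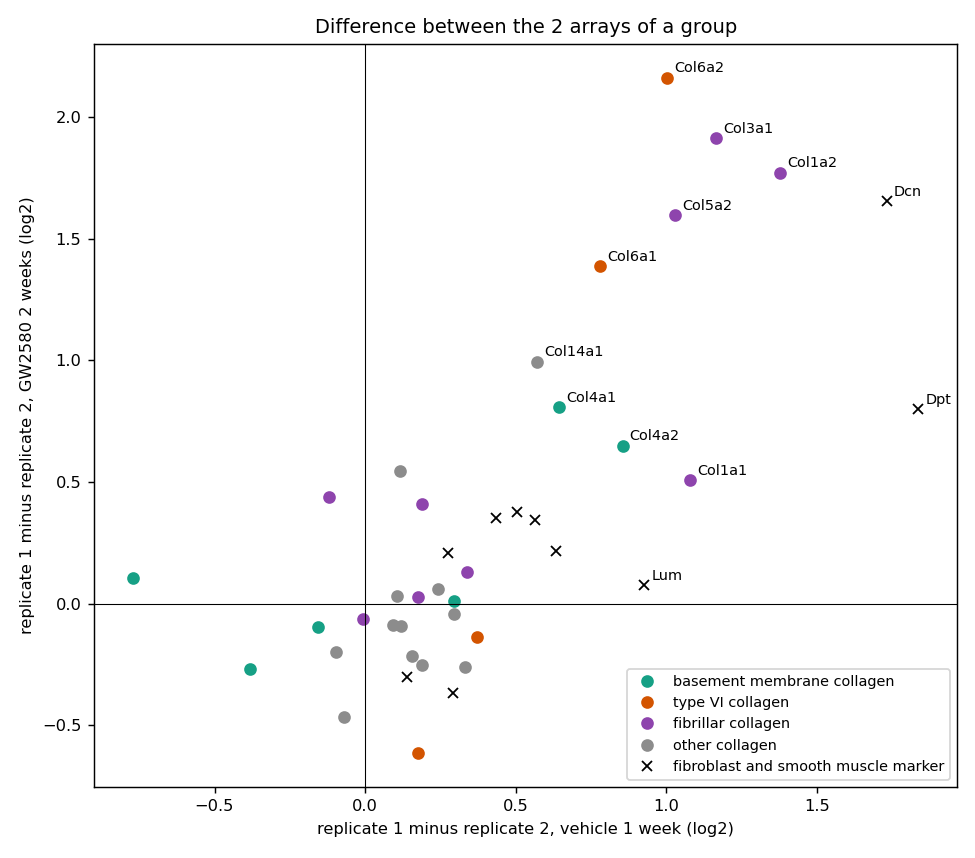
Replicate 1 minus replicate 2 for the 31 tested collagens and the 10 fibroblast and smooth muscle markers above the filter, in the 1-week vehicle group (horizontal axis) and in the GW2580 group (vertical axis), in log2 units. Circles are collagens coloured by class and crosses are markers. Col6a2, Col3a1, Col1a2, Col5a2 and Dcn lie far to the upper right, whereas Col5a3, Col5a1 and Col7a1 lie near 0 on both axes.

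Of 6 tested basement membrane chains, 0 were called in any of the 3 comparisons, with medians of -0.08 over time and -0.19 with GW2580. The share called over all tested genes was 6.45% over time, 0.367% with GW2580 and 0.512% for GW2580 against 1 week. A count of 0 among 6 genes is near these shares. Col4a1 and Col4a2, neighbouring genes whose products form the main type IV trimer, were lowest on the second GW2580 array. Col4a1 read 6.43 and 5.62 on the GW2580 arrays, 6.61 and 6.78 on the 2-week vehicle arrays, and 7.74 and 7.09 on the 1-week vehicle arrays. Its groups did not overlap, running upward in that order. Col4a1 differed by -0.67 with GW2580 (SE 0.29, limma adjusted p 0.272) and by -0.72 over time (adjusted p 0.177), and the GW2580 difference was -1.07 without GW2580 replicate 1 and -0.27 without replicate 2. A second probe set, not far below in mean (6.36 against 6.71), differed by 0.34 with GW2580, so the direction depended on the probe set.

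Col4a2 read 5.68 and 5.03 on the GW2580 arrays, 5.79 and 6.06 on the 2-week vehicle arrays, and 6.92 and 6.07 on the 1-week vehicle arrays. It ran in the same order as Col4a1, with differences of -0.57 in both comparisons. Col4a5, for an X-linked type IV chain of specialised basement membranes, was instead highest with GW2580, at 9.75 and 9.64, against 8.49 and 9.11 with vehicle at 2 weeks and 8.35 and 9.12 with vehicle at 1 week. The 2 vehicle groups overlapped. Col4a5 differed by 0.90 with GW2580 (SE 0.27, limma adjusted p 0.156) and by 0.67 on its second probe set.

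Col18a1, which encodes the basement membrane proteoglycan whose end fragment is endostatin, read 11.38 and 11.65 with GW2580, 11.90 and 11.92 with vehicle at 2 weeks, and 11.36 and 11.75 with vehicle at 1 week. It differed by -0.40 with GW2580 (SE 0.17, limma adjusted p 0.262), but by -0.03 on its second probe set, which was as bright. Over time it differed by 0.36 (limma adjusted p 0.241). Col4a6 and Col15a1 differed by at most 0.11 in size in these comparisons, and Col4a3 and Col4a4 were below the filter.

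Of the fibril-associated and remaining chains, 0 were called. Among all tested genes, 6.45% were called over time, 0.367% with GW2580 and 0.512% for GW2580 against 1 week. Col16a1 read 10.85 and 11.05 with GW2580, 10.57 and 11.20 with vehicle at 2 weeks, and 10.20 and 10.30 with vehicle at 1 week. It was lowest at 1 week and its 2-week groups overlapped, with a difference of 0.64 over time (SE 0.20, limma adjusted p 0.104), the largest positive one of the collagens. Col12a1, a chain that decorates type I fibrils, read 6.67 and 7.14 with GW2580, 6.44 and 6.07 with vehicle at 2 weeks, and 6.32 and 6.39 with vehicle at 1 week. It differed by 0.65 with GW2580 (SE 0.19, limma adjusted p 0.145). The time difference of Col12a1 was -0.10 on this probe set and 1.06 on a second (mean 5.86), so its direction over time depended on the probe set.

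Col23a1, a transmembrane chain, read 6.47 and 6.72 with GW2580, 6.68 and 6.71 with vehicle at 2 weeks, and 6.47 and 6.28 with vehicle at 1 week, a difference of 0.32 over time (limma adjusted p 0.221). Col25a1, another transmembrane chain, read 6.52 and 6.74 with GW2580, 6.81 and 6.82 with vehicle at 2 weeks, and 6.83 and 6.68 with vehicle at 1 week, and Col8a1 lay between 5.47 and 5.83 on all arrays. With GW2580, Col23a1 differed by -0.10 with overlapping groups, while Col25a1 and Col8a1 were lower on both GW2580 arrays, by -0.19 and -0.22, and were not called. Col2a1, the fibrillar chain of cartilage, differed by 0.53 with GW2580 (limma adjusted p 0.158) at levels of 5.21 to 5.97. The remaining tested members (Col27a1, Col11a2, Col6a4, Col20a1, Col9a3, Col22a1 and Col10a1) differed by -0.18 to 0.21 over time and by -0.22 to 0.17 with GW2580. Col9a1, a chain of cartilage, differed by 0.06 over time and 0.36 with GW2580, but by 0.64 and -0.53 on a second probe set of similar mean (5.85 against 6.03). The 11 members below the filter differed by -0.25 to 0.52 over time and by -0.24 to 0.38 with GW2580.

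Against vehicle at 1 week, GW2580 arrays showed the lowest p for Col4a1, which differed by -1.39 (SE 0.29, limma adjusted p 0.0783) but by -0.30 on its second probe set. Col4a2 differed by -1.14 (adjusted p 0.119), Col16a1 by 0.70 and Col4a5 by 0.96 (adjusted p 0.14 and 0.136). Col5a3 and Col7a1 differed by -0.48 and -0.32, and Col5a1 by 0.36. Without GW2580 replicate 1, Col4a1 differed by -1.80, a value that rests on 1 GW2580 array.

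Genes that modify, fold and export procollagen were set beside the chains. Of 18 tested, 2 rose over time, 0 fell and 16 were not called (median 0.01). Over all tested genes the share called was 6.45% over time, 0.367% with GW2580 and 0.512% for GW2580 against 1 week. P4ha2, a catalytic subunit of prolyl 4-hydroxylase, which makes the hydroxyproline that stabilises the helix, read 9.16 and 9.81 with GW2580, 8.95 and 9.09 with vehicle at 2 weeks, and 7.78 and 8.12 with vehicle at 1 week. Both 2-week groups lay above 1 week, and P4ha2 rose by 1.06 over time (SE 0.22, limma adjusted p 0.0357) and by 1.53 between GW2580 and vehicle at 1 week (adjusted p 0.037). Fkbp14, a prolyl isomerase of the endoplasmic reticulum, rose by 0.64 over time (SE 0.15, limma adjusted p 0.0476). With GW2580 0 of 18 were called (median 0.18), and the smallest p belonged to Serpinh1, the collagen chaperone HSP47, with a difference of 0.74 (SE 0.16, limma adjusted p 0.0878), followed by P4ha1 with 0.76 (adjusted p 0.133).

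Of 7 tested genes of procollagen cleavage and cross-linking, 1 fell over time and 0 rose (median -0.06), where 6.45% of all tested genes were called. Pcolce2, an enhancer of procollagen C-proteinase, was the gene that fell, by 0.70 (SE 0.15, limma adjusted p 0.0367). With GW2580 0 were called, the smallest p belonging to its relative Pcolce (0.50, adjusted p 0.122) and to Loxl3, a lysyl oxidase family gene (0.55, adjusted p 0.143). Of 6 tested collagen receptors, Itga10, the alpha10 subunit of a collagen-binding integrin, read 6.97 and 7.21 with GW2580, 8.88 and 8.87 with vehicle at 2 weeks, and 6.03 and 6.78 with vehicle at 1 week. It was highest in 2-week vehicle mice, where Col5a3 and Col7a1 were lowest. Itga10 rose by 2.47 over time (SE 0.23, limma adjusted p 0.00821) and fell by 1.79 with GW2580 (SE 0.23, adjusted p 0.0443). In the GW2580 comparison 0 of all genes were called by limma when either 1-week array, vehicle replicate 2 at 2 weeks or GW2580 replicate 1 was left out. The other 5 receptors, among them Ddr1, Ddr2 and Itgb1, were not called in any comparison. Over all tested genes 6.45% were called over time and 0.367% with GW2580.

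Of 12 tested partners in the basement membrane and hemidesmosome, Lamb3, the beta3 chain of an epithelial laminin, fell by 1.32 over time (SE 0.17, limma adjusted p 0.0108) and by 1.22 between GW2580 and vehicle at 1 week (adjusted p 0.0312). The other 11 were not called (median of all 12 -0.20). Over all tested genes 6.45% were called over time, 0.367% with GW2580 and 0.512% for GW2580 against 1 week. With GW2580 0 of 12 were called (median 0.13), the smallest p belonging to Plec, for the linker plectin (0.30, limma adjusted p 0.317), and to Hspg2, for perlecan. Lamb3 encodes a chain of the laminin to which Col7a1 anchoring fibrils attach, and like Col7a1 it was highest at 1 week, at 8.34 and 8.60 with GW2580, 8.20 and 8.55 with vehicle at 2 weeks, and 9.77 and 9.62 with vehicle at 1 week.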

How the data were processed

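Total RNA of sorted tumour cells was measured on 6 arrays in 3 groups of 2. The deposited log2 values were made by the authors with RMA, per the submitters' processing notes, which corrects background, quantile-normalises arrays and summarises probe sets; its version was not stated there. Quantile normalisation hides a shift shared by most genes. Of 45101 probe sets 64 were controls. Symbols came from the platform annotation, and all 42 collagen identifiers matched RefSeq (GRCm38.p6) with 0 symbols changed. Of the 42 genes, 27 had several probe sets. Per gene the probe set with the highest mean was kept, and genes with a mean under 4.97 were left out. A mean per group was fitted with limma 3.58.1 in R 4.3.3 (lmFit, eBayes without trend, 3 residual and 4.97 prior degrees of freedom), the adjusted p being Benjamini-Hochberg over 13090 genes. Collagen classes, partner lists and markers, and the rule for genes given with all values (called, the 4 highest means, the smallest p of a class, and a fixed set), were chosen with earlier results of these data known. Col5a2, Col14a1 and Col2a1 were chosen after their values were seen. An exact permutation of 2 arrays against 2 cannot go below p = 0.333. Replicate numbers were not used as pairs, since the labels name no block. The correlation of replicate gaps over all tested genes was 0.29 between the GW2580 and 1-week groups. It was 0.01 between the GW2580 and 2-week vehicle groups and 0.00 between the 2 vehicle groups. The fit was tested on simulated arrays. Alternatives were other filters, all probe sets or their mean, trend and robust eBayes, array weights, a common 75th percentile, only the arrays compared, a replicate block and leaving out each array.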

Additional observations from a re-analysis of the deposited data

How the results depend on the processing

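The time comparison called 844 genes and 2 collagens with a collagen median of -0.11. With trend and robust eBayes it called 1011 genes and 3 collagens, Col5a1 among them (-0.41, limma adjusted p 0.0489). It called 4 collagens and 1316 genes with array weights, and 7 collagens and 1059 genes with only the 4 arrays compared. With the replicate block it called 9 collagens and 1223 genes, though the replicate numbers share no stated source. Under the stricter filter, which keeps 18 collagens, the median was -0.63 over time, 0.38 with GW2580 and -0.22 for GW2580 against 1 week. The inhibitor comparison called 48 genes and 0 collagens (11 at an unadjusted p under 0.05, limma). It called 74 genes and 2 collagens without the filter, 1 collagen and 42 genes with the stricter filter, 111 genes with every probe set tested, 131 genes and 2 collagens with trend and robust eBayes, 72 genes and 2 collagens at a common 75th percentile, 15 genes with array weights, 0 genes with only the 4 arrays compared (2120 at an unadjusted p under 0.05), and 154 genes and 3 collagens (Col5a1, Col5a3, Col6a1) with the replicate block. GW2580 against 1 week called 67 genes and 0 collagens, and 32 genes with every probe set, 139 with trend and robust eBayes, 24 with 4 arrays, and 182 genes and 1 collagen (Col4a1) with the replicate block. Leaving out 1 array gave 0 to 1059 genes, 0 to 7 collagens and medians of -0.25 to -0.11 over time. It gave 0 to 167 genes, 0 to 2 collagens and medians of 0.021 to 0.22 with GW2580, and 0 to 169 genes, 0 to 1 collagens and medians of -0.23 to -0.01 for GW2580 against 1 week. Of 801 alternative values for a chosen set of single collagens, 18 changed sign. Many settings change only the spread or the genes tested and leave a difference as it was. The count therefore does not measure how stable the signs were. With the mean of all probe sets Col12a1 was 0.22 over time and Col18a1 0.11 for GW2580 against 1 week. Over time, leaving out 1 array gave Col4a5 -0.32 to 0.45, Col25a1 -0.017 to 0.14, Col8a1 -0.007 to 0.29, Col12a1 -0.29 to 0.089. With GW2580 it gave Col16a1 -0.25 to 0.38, Col6a3 -0.015 to 0.66, Col3a1 -0.40 to 1.51, Col1a2 -0.44 to 1.33, Col23a1 -0.23 to 0.028. For GW2580 against 1 week it gave Col8a1 -0.23 to 0.066, Col18a1 -0.23 to 0.15, Col6a1 -0.035 to 1.35, Col6a2 -1.98 to 0.18. The cause of these changes was not tested, apart from the fewer genes or arrays that a setting itself uses.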
